A study of Mus musculus with 6 samples.

Results

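The genes described here are the chains of the beta1, beta7 and alpha v integrins, namely Itga1, Itga2, Itga4, Itgae, Itgav, Itgb1, Itgb3 and Itgb7, together with Vcam1, which encodes a ligand of the alpha4 integrins. They were taken as all array probes annotated to these 9 symbols. The annotation listed 27 such probes among the 45988 on the array, and these covered 8 of the 9 genes, out of 17626 genes with a probe. Itga1, the alpha1 chain CD49a, had no listed probe and has no value here. Of the 27 probes, 18 passed a filter on dim probes and were tested, and they stood for 7 genes. The single Itgb3 probe was among the 9 probes that did not pass.

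Splenic natural killer (NK) cells were taken from female C57Bl/6 mice aged 7 weeks. Kit+ cells were sorted as CD3-negative and NK1.1-positive cells that carried CD117, the receptor encoded by Kit. Kit- cells were sorted as CD3-negative and NK1.1-positive cells that did not carry it. The labels give the purity of the sorted NK cells as around 98%, and describe the sort and the comparison as done 3 times. Each group had 3 samples, numbered 1 to 3 in the titles, and 1 Illumina bead array per sample. How many mice went into each sort is not given in the sources used here. The labels give no gene modification or treatment for these mice, although the series title names NK cells elicited by IL-18.

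Integrins are surface receptors built from 1 alpha and 1 beta chain, and the pairing decides which ligand is bound. The alpha4 chain pairs with beta1 or beta7 and binds VCAM-1, fibronectin and the mucosal addressin MAdCAM-1, while the alpha E chain pairs with beta7 and binds E-cadherin. The alpha1 and alpha2 chains pair with beta1 and bind collagens, and the alpha2 chain (CD49b) is a surface marker of mouse NK cells. The alpha v chain pairs with several beta chains and binds vitronectin, fibronectin and latent TGF-beta. VCAM-1 itself is an immunoglobulin-family molecule known from activated endothelium and from macrophages of the spleen and bone marrow.

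Values with ± are means and standard deviations (SD) of normalized log2 intensity over the samples of a group, n = 3 each throughout. The arrays differed in brightness. The median raw signal lay between 74.1 and 99.9 on the Kit+ arrays and between 68.9 and 130.0 on the Kit- arrays. Each array was given a background level, below which 95% of its 1176 probes for olfactory and vomeronasal receptors fell, and these levels ran from 6.58 to 7.23 on the normalized log2 scale. The share of probes above it ran from 18.7% to 27.5% on the Kit+ arrays and from 15.1% to 29.8% on the Kit- arrays. The gene used in the sort, Kit, stood at 11.17 ± 0.79 in Kit+ and 8.34 ± 0.55 in Kit- with its brightest probe, which checks the labels and is no finding. Klrb1c, which encodes NK1.1, stood at 11.44 ± 0.53 and 12.04 ± 0.54 in the same order, far above background on all 6 arrays. Cd3e was also above background on all 6 arrays, at 8.21 ± 0.96 in Kit+ and 9.02 ± 0.53 in Kit- (limma adjusted p = 0.667).

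Vcam1 was the 1 gene of the 7 tested that differed between the groups in the fit without pairing, and it rose in Kit+ cells. Its brightest probe, numbered 2900450 and listed under the RefSeq mRNA, had a normalized log2 intensity of 9.77, 9.43 and 9.40 in Kit+ samples 1, 2 and 3, against 7.25, 7.60 and 7.23 in Kit- samples 1, 2 and 3. All Kit+ samples lay above all Kit- samples by more than the spread within either group, and the probe was above background on all 6 arrays. The mean was 9.54 ± 0.20 in Kit+ and 7.36 ± 0.21 in Kit-, a 4.52-fold difference. On the log2 scale this was 2.18 (SE 0.19, 95% confidence interval 1.74 to 2.61), with a limma adjusted p = 0.00498. Of the 22994 tested probes, 1.14% were called in either direction and 0.335% were called higher. With the title number as a block in the fit, which compares the samples within each number, the adjusted p was 0.000946, in a fit that called 5.84% of the probes.

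The difference of this Vcam1 probe had the same sign in raw, normalized and value table data. Within numbers 1, 2 and 3 the normalized difference was 2.52, 1.84 and 2.17 on the log2 scale. The raw signal of the probe was 1929, 462 and 471 in Kit+ samples 1, 2 and 3, against 311, 152 and 130 in the Kit- samples of the same numbers. Sample Kit+ 1 was the brightest by raw signal. The raw log2 difference within each number was 2.63, 1.61 and 1.85. In the deposited value table the intensity was 1096, 861 and 844 in Kit+ samples 1, 2 and 3, against 174, 226 and 172 in Kit- samples 1, 2 and 3, so the table's scaling brought Kit+ 1 near the other Kit+ samples. The log2 difference in that table was 2.29 (SE 0.19, limma adjusted p = 0.00567 without the block and 0.00245 with it). On raw signals the fits ended the call. With no normalization the limma adjusted p was 0.778 at a log2 difference of 2.03, and with median centring it was 0.72 without and 0.236 with the block, at a difference of 2.20. None of these 3 fits called a probe of any gene, with 816, 1211 and 2559 probes at an unadjusted p under 0.05.

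The other Vcam1 probes did not show the difference. Probe 105130056, also listed under the RefSeq mRNA, had 6.43, 6.67 and 6.62 in Kit+ samples 1, 2 and 3, against 6.54, 6.74 and 6.33 in Kit- samples 1, 2 and 3. It was not above background on any array. The cDNA-clone probe 101580538 was not above background on any array either, and it was too dim to be tested. Both in the dim range, probes 101770070 and 101580309, listed under cDNA clones, passed the background level on 1 Kit+ array each, and the first of them also on 1 Kit- array. Their log2 differences were 0.07 (SE 0.19) and 0.34 (SE 0.22), with limma adjusted p = 0.98 and 0.692. The second was higher in Kit+ within each number, as were 21% of all tested probes. The rise of Vcam1 therefore rests on a single probe of 5. With the mean of its 4 tested probes the log2 difference was 0.66 (SE 0.16) and the limma adjusted p was 0.11.

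**Figure D1:**
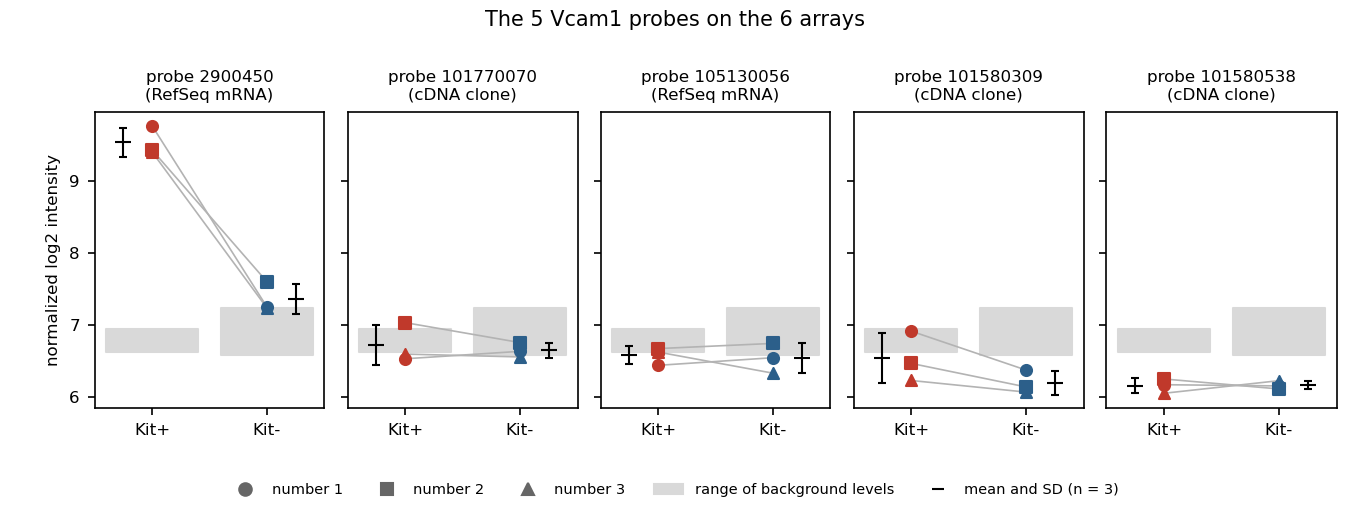
Normalized log2 intensity (y axis) of the 5 Vcam1 probes in Kit+ and Kit- samples, with lines joining samples of the same title number, black bars for the mean and SD of 3 samples, and grey for the range of background levels in each group. Probe 2900450 lies between 9.40 and 9.77 in Kit+ and between 7.23 and 7.60 in Kit-, while the others lie at or near the grey range in both groups.

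Among the 6 integrin chains of the set that were tested, Itgav had the largest difference, and its call depended on the pairing. The alpha v chain's brightest probe, 100110411, listed under a cDNA clone, had a normalized log2 intensity of 8.53, 7.66 and 8.50 in Kit+ samples 1, 2 and 3, against 6.81, 6.80 and 7.45 in Kit- samples 1, 2 and 3. The groups did not overlap, as was so for 16.3% of all tested probes, and sample Kit+ 2 lay closest to the Kit- samples. The mean was 8.23 ± 0.50 in Kit+ and 7.02 ± 0.37 in Kit-, a 2.31-fold difference. All 3 Kit+ arrays and 2 of the 3 Kit- arrays had the probe above background. On the log2 scale the difference was 1.21 (SE 0.30, 95% confidence interval 0.51 to 1.91), which did not pass without the block (limma adjusted p = 0.138) and passed with it (limma adjusted p = 0.0139). With the block but without number 2 the limma adjusted p was 0.0618.

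The remaining Itgav probes did not follow the brightest one. Probe 2340020, listed under the RefSeq mRNA, had 7.01, 7.00 and 6.54 in Kit+ samples 1, 2 and 3, against 6.76, 6.44 and 6.80 in Kit- samples 1, 2 and 3. It was above background on 2 arrays of each group, and the samples overlapped (log2 difference 0.18, SE 0.20, limma adjusted p = 0.912). The cDNA-clone probes 106660463 and 106840138 had differences of -0.04 and -0.02, and probe 101340541 was too dim to be tested. These 3 were not above background on any array. The raw signal of the brightest probe was 726, 162 and 259 in Kit+ samples 1, 2 and 3, against 202, 123 and 155 in the Kit- samples. It was higher in Kit+ within each number. With the mean of the 4 tested Itgav probes the log2 difference was 0.33 (limma adjusted p = 0.459).

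The alpha4 chain Itga4, the partner of beta1 and beta7 in binding VCAM-1, gave no clear signal. Its brightest tested probe, 100730019, had 6.64, 6.20 and 6.40 in Kit+ samples 1, 2 and 3, against 6.92, 6.34 and 6.88 in Kit- samples 1, 2 and 3. Kit+ lay below Kit- within each number, as was so for 18% of all tested probes, but the groups overlapped. The log2 difference was -0.30 (SE 0.22, 95% confidence interval -0.81 to 0.21, limma adjusted p = 0.771). On 1 Kit+ array and 2 Kit- arrays this probe exceeded the background level. The other tested Itga4 probes, 101940707 and 2470739, exceeded it on no Kit+ array and on 1 Kit- array each, and the 2 remaining ones on none. Over the 5 Itga4 probes and 6 arrays, values ran from 6.02 to 6.92, so a difference in Itga4 was hardly measurable on this array.

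Itga2, the alpha2 chain that marks mouse NK cells on their surface, was also dim. Its 1 probe had 6.76, 6.18 and 6.23 in Kit+ samples 1, 2 and 3, against 6.61, 5.87 and 6.57 in Kit- samples 1, 2 and 3. It was above background only on the number 1 array of each group, and the samples overlapped. The log2 difference was 0.04 (SE 0.26, 95% confidence interval -0.58 to 0.66, limma adjusted p = 0.995).

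Itgae, the alpha E chain CD103, was above background in both groups and did not differ beyond the spread. Its brightest probe, 4210632, had 7.11, 7.52 and 7.26 in Kit+ samples 1, 2 and 3, against 6.82, 7.67 and 7.42 in Kit- samples 1, 2 and 3. It was above background on all 6 arrays, highest on the number 2 array of each group. The log2 difference was -0.01 (SE 0.25, 95% confidence interval -0.59 to 0.58, limma adjusted p = 0.997). Probes 4670239 and 5690154 had differences of -0.25 (SE 0.20) and -0.23 (SE 0.26), with limma adjusted p = 0.806 and 0.922. The other 4 of the 7 Itgae probes were not above background on any array.

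Itgb1, the shared beta1 chain, was bright in both groups. Probe 770369 had 11.18, 12.19 and 11.40 in Kit+ samples 1, 2 and 3, against 10.91, 12.21 and 12.08 in Kit- samples 1, 2 and 3. The samples overlapped, and the spread between numbers was wider than the difference between groups. The mean was 11.59 ± 0.53 in Kit+ and 11.73 ± 0.71 in Kit-. The log2 difference was -0.14 (SE 0.40, limma adjusted p = 0.981), with a 95% confidence interval of -1.09 to 0.80, narrowed to -0.61 to 0.33 with the block. The second probe, 5080156, was above background on all 6 arrays and had a log2 difference of -0.27 (SE 0.32, limma adjusted p = 0.923).

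Itgb7, the beta7 chain that pairs with alpha4 and alpha E, was also bright. After normalization it lay lower in Kit+ within each number, as was so for 18% of all tested probes. Its 1 probe had 10.04, 11.27 and 10.89 in Kit+ samples 1, 2 and 3, against 11.07, 11.48 and 11.02 in Kit- samples 1, 2 and 3. Sample Kit+ 1 was the lowest, and the groups overlapped. The probe's raw signal was 2334, 1465 and 1307 in Kit+ samples 1, 2 and 3, against 6136, 1302 and 1811 in Kit- samples 1, 2 and 3, so that in number 2 the raw signal was higher in Kit+. The mean was 10.73 ± 0.63 in Kit+ and 11.19 ± 0.26 in Kit-. The log2 difference was -0.46 (SE 0.32, 95% confidence interval -1.21 to 0.30), and it passed neither without the block (limma adjusted p = 0.754) nor with it (limma adjusted p = 0.286). Without Kit+ 1 the difference was -0.11, so its size rested on that sample.

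Itgb3, the beta3 chain CD61 that pairs with alpha v and, on platelets, with the alpha IIb chain, was at background. Its 1 probe had 6.63, 6.05 and 6.24 in Kit+ samples 1, 2 and 3, against 6.19, 6.00 and 6.01 in Kit- samples 1, 2 and 3. Only the Kit+ 1 array was above its background level, so no fold is given, and the probe was too dim to be tested.

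**Figure D2:**
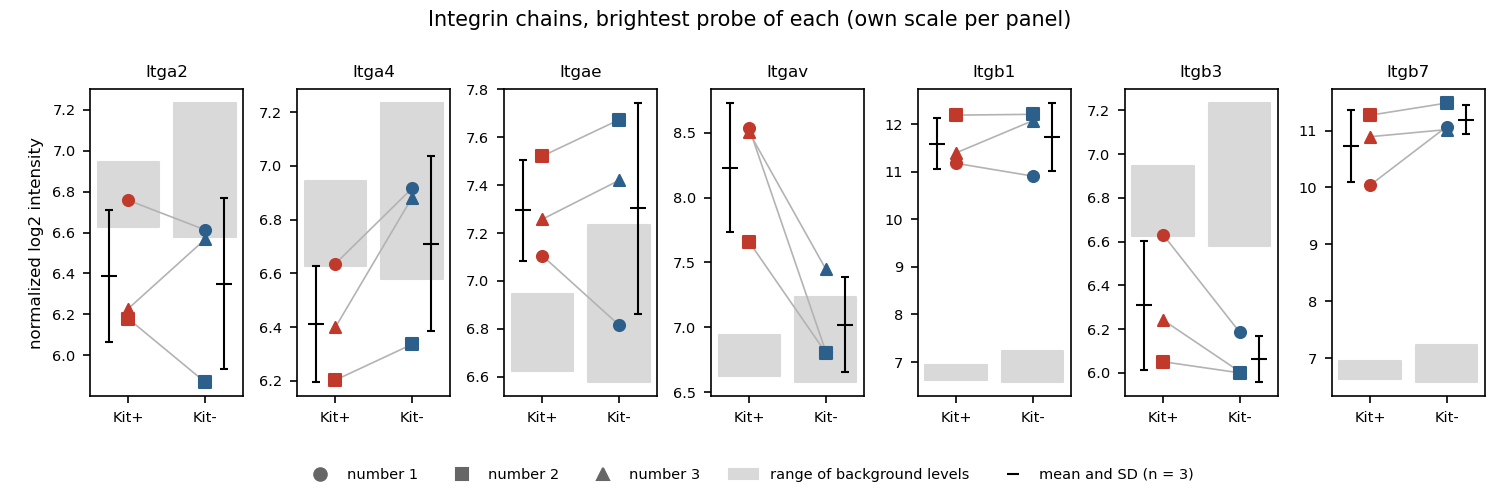
Normalized log2 intensity (y axis, a separate scale in each panel) of the brightest probe of 7 integrin chains in Kit+ and Kit- samples, with lines joining samples of the same title number, black bars for the mean and SD of 3 samples, and grey for the range of background levels. Itgb1 and Itgb7 lie far above the grey range, Itga2, Itga4 and Itgb3 lie in or below it, and the 3 Kit+ samples lie above the 3 Kit- samples in the Itgav panel.

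Read as a group, the 18 tested probes had 7 differences above 0 and 11 below. By the brightest tested probe, 1 of 7 genes rose and none fell without the block, where 0.511% of 11743 genes were called higher and 0.707% lower. With the block 2 of 7 rose and none fell, where 3.29% were called higher and 3.77% lower. The median log2 difference of the 7 genes was -0.01, beside 0.03 for all 11743. The 2 groups did not overlap for 2 of the 18 probes, those of Vcam1 and Itgav described above, beside 16.3% of all tested probes.

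**Figure D3:**
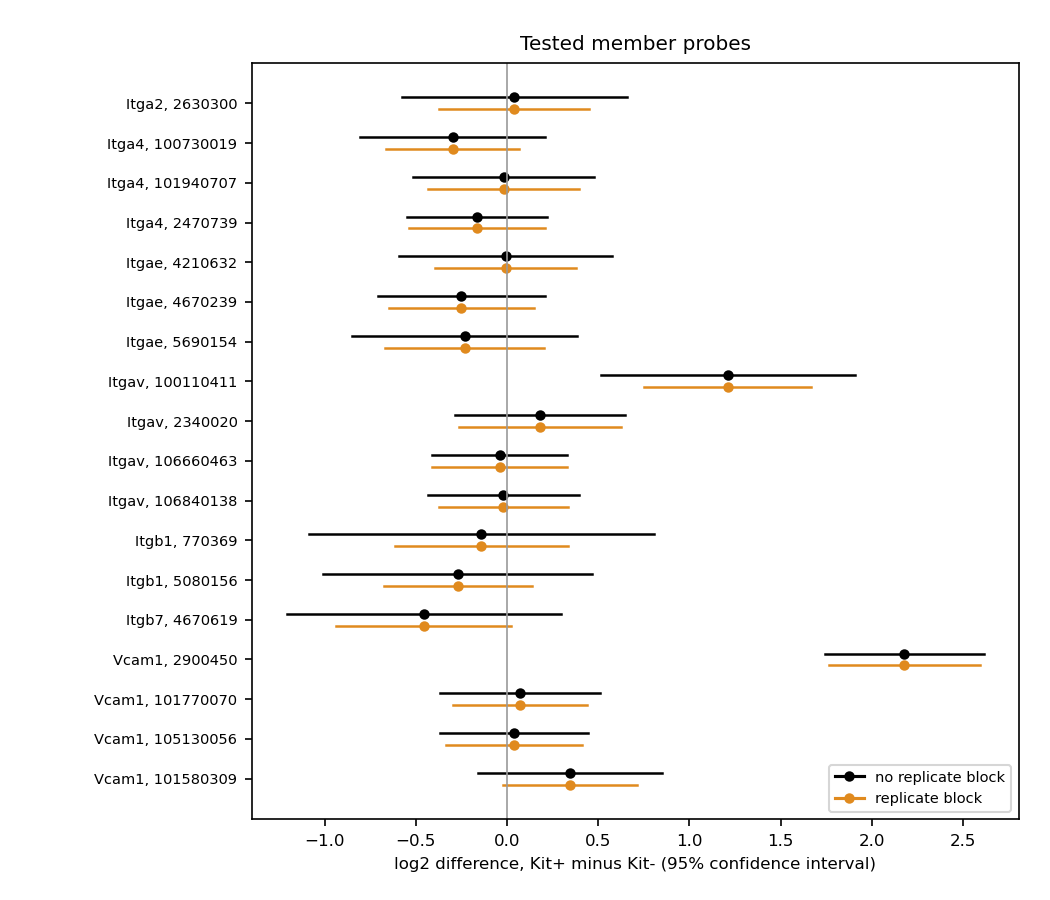
Log2 difference, Kit+ minus Kit-, with its 95% confidence interval (x axis) for the 18 tested probes, without the replicate block (black) and with it (orange). Vcam1 probe 2900450 (2.18) and Itgav probe 100110411 (1.21) have intervals above 0, and the other 16 have intervals that include 0.

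Of 25 ligand genes listed beside Vcam1, 13 were bright enough to be tested and none of these 13 passed without the block, with a median log2 difference of 0.03. The smallest p-values belonged to Pecam1, the platelet and endothelial adhesion molecule, Mfge8, a secreted protein bound by alpha v integrins, and Emilin1, a matrix glycoprotein. Pecam1 stood at 9.50 ± 0.33 in Kit+ and 8.60 ± 0.07 in Kit- (limma adjusted p = 0.101, 0.0222 with the block), although its second tested probe had the opposite sign. Mfge8 stood at 7.24 ± 0.22 in Kit+ and 7.99 ± 0.22 in Kit- (limma adjusted p = 0.153, 0.0483 with the block). Emilin1 exceeded the background level on 1 Kit- array only, with a log2 difference of -0.33 (SE 0.14, limma adjusted p = 0.443). The probes of Madcam1 and Cdh1, which encode the addressin and E-cadherin, were too dim to be tested, and fibronectin (Fn1) was not above background on any array.

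Among the intracellular and membrane partners of integrins, 1 of 32 tested genes rose and 1 fell. Of all 11743 genes, 0.511% were called higher and 0.707% lower. Cd81, a tetraspanin that associates with beta1 integrins, stood at 9.39 ± 0.38 in Kit+ and 7.32 ± 0.37 in Kit-, a 4.21-fold rise (log2 difference 2.07, SE 0.26, limma adjusted p = 0.0184). It was above background on 2 of 3 Kit- arrays. Fermt3, the kindlin that activates integrins in blood cells, fell in Kit+, where it was above background on 1 of 3 arrays. It stood at 6.81 ± 0.51 in Kit+ and 8.59 ± 0.34 in Kit- (log2 difference -1.78, SE 0.29, limma adjusted p = 0.0437). The median log2 difference of the 32 was -0.14.

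With the block, 2 of the 32 rose and 7 fell, where 3.29% of all 11743 genes were called higher and 3.77% lower. The risers were Cd81 and the amino acid transporter heavy chain Slc3a2 (limma adjusted p = 0.000891 and 0.0188), of which Slc3a2 varied widely between numbers. Beside Fermt3 (limma adjusted p = 0.011), those that fell were the integrin-linked kinase Ilk, the focal adhesion scaffold Pxn, the tetraspanin Cd9, the actin crosslinker Actn4, and Rasgrp2 and Rassf5, which act in the Rap1 signal to integrins. Their blocked limma adjusted p-values were 0.00685, 0.0469, 0.0449, 0.0258, 0.044 and 0.0248. Every Kit+ array had Ilk at or below its background level, so the fall of at least 1.74-fold is a bound set by those levels. Of 3 tested Pxn probes and of 2 tested Slc3a2 probes, 1 each had the opposite sign. Tln1, the talin that links beta chains to actin, had a log2 difference of -0.88 (SE 0.28, limma adjusted p = 0.24, 0.0544 with the block).

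Other integrin chains outside the leukocyte beta2 family showed no called difference. Of 9 further alpha chains, 4 were tested, and the smallest p-values were those of Itga6 (log2 difference -0.29, SE 0.17, limma adjusted p = 0.634), Itga2b and Itga11, and the last pair were not above background on any array. Of 5 further beta-type chains, 3 were tested, Itgb5, Itgb4 and Itgb8, with limma adjusted p-values of 0.743, 0.98 and 0.992. No gene of these lists passed with the block either. The beta2 chain Itgb2 and its partner Itgal fell, at 7.52 ± 0.53 and 7.82 ± 0.41 in Kit+, against 10.09 ± 0.46 and 9.42 ± 0.16 in Kit- (limma adjusted p = 0.0189 and 0.029). Itgam and Itgax had log2 differences of -0.36 (SE 0.23) and 0.17 (SE 0.31), with limma adjusted p = 0.699 and 0.971. With the block Itgad, a further partner of the beta2 chain, rose (limma adjusted p = 0.0371).

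Of 12 other adhesion molecules tested, 1 rose and none fell, where 0.511% of all 11743 genes were called higher. Emb, the glycoprotein embigin, which takes part in cell adhesion to matrix, stood at 10.99 ± 0.28 in Kit+ and 9.16 ± 0.35 in Kit- (log2 difference 1.83, SE 0.24, limma adjusted p = 0.0189). With the block 1 of the 12 rose and 2 fell, where 3.29% of all genes were called higher and 3.77% lower. The 2 that fell were Cd44, the hyaluronan receptor, and Selplg, the selectin ligand PSGL-1 (limma adjusted p = 0.0107 and 0.0327). Of 6 tested Cd44 probes 2 had the opposite sign. The median log2 difference of the 12 was -0.05.

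The genes whose pattern over the 6 arrays was most like that of the Vcam1 probe were Ear3, Adgre1, Trat1 and Tgfbi. Their Pearson correlations with it were 0.995, 0.994, 0.991 and 0.989 over 6 arrays, the highest among 7055 genes above background on at least 3 arrays. The points share the arrays and their scaling, and the 2 groups set most of such a correlation. Ear3 is a ribonuclease whose family holds near-identical copies, so its probe may also read others, Adgre1 encodes the macrophage receptor F4/80, Trat1 a T cell receptor adaptor and Tgfbi a secreted matrix protein that integrins bind. Of 3 tested Trat1 probes 1 had the opposite sign. The log2 differences were 1.36, 1.92, 0.87 and 1.18, with limma adjusted p = 0.0236, 0.00911, 0.0566 and 0.015. Itgav, the alpha v chain, had a correlation of 0.85 with Vcam1 over the 6 arrays, and of 0.03 once each group's mean was removed.

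Markers of some other cell types also differed between the groups, while other lists gave no call without the block. The values are RNA levels of sorted pools, in which fewer cells of a type and less RNA per cell cannot be told apart. Of 17 tested macrophage markers other than Vcam1, 4 rose and none fell, where 0.511% of all 11743 genes were called higher. With the block 8 of the 17 rose, where 3.29% of all genes were called higher. The summed intensity of the 17 in the value table was between 4165 and 4830 on the Kit+ arrays. On the Kit- arrays it was between 1729 and 1951. In the 3 Kit+ samples 7 of the 17 exceeded the background level throughout, beside 5294 of all 11743 genes. In the 3 Kit- samples 1 of the 17 did, beside 4366 of the 11743. The 4 that rose without the block were the iron exporter Slc40a1, Adgre1, Mpeg1 and the receptor kinase Axl. Their log2 differences were 2.64, 1.92, 2.40 and 1.67. Slc40a1 stood at 9.50 ± 0.29 in Kit+ and 6.86 ± 0.18 in Kit- (limma adjusted p = 0.00345).

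With the block the others that rose were Hpgd, Apoe, Hmox1 and C1qb (limma adjusted p = 0.0152, 0.0211, 0.00629 and 0.0227), of which Hpgd, Apoe and Hmox1 were above background in every Kit+ sample. The median log2 difference of the 17 was 0.66, beside 0.03 for all 11743 genes. Within each number 11 of the 17 were higher in Kit+, as were 2844 of the 11743. The same held for 7 of 9 progenitor, 6 of 9 T cell and 4 of 5 B cell markers. It held for 3 of 9 dendritic cell, 1 of 8 endothelial, 2 of 7 mast cell and 0 of 6 megakaryocyte markers. The 7 progenitor markers include Kit, whose difference was set by the sort. Some macrophage markers were low or not measured. Vsig4 and Treml4 were not above background on any array, C1qa exceeded it on 1 Kit+ array only, and the probes of Spic, Cd163 and Timd4 were too dim to be tested. Cd68 and Csf1r had no listed probe. The part that macrophage RNA has in the Vcam1 and Itgav values was not tested.

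Of 9 tested haematopoietic progenitor markers, Kit, the sorted gene, was the 1 that passed without the block. The summed value table intensity of the other 8 was 2260, 1171 and 1598 in Kit+ samples 1, 2 and 3, against 983, 920 and 882 in Kit- samples 1, 2 and 3, with sample Kit+ 2 closest to the Kit- samples. Lmo2 and Mpo had log2 differences of 1.33 and 1.45 (limma adjusted p = 0.058 and 0.181, 0.00467 and 0.0165 with the block). Of 9 tested dendritic cell markers other than Itgae, 1 rose, where 0.511% of all 11743 genes were called higher. It was the transcription factor Batf3, at 8.72 ± 0.46 in Kit+ and 6.89 ± 0.13 in Kit- (limma adjusted p = 0.0223). H2-Ab1 and H2-Aa, both class II chains, had log2 differences of 1.75 and 2.07 (limma adjusted p = 0.199 and 0.213), with 1 of 3 tested H2-Ab1 probes of the opposite sign. With the block 3 of the 9 rose and 1 fell, where 3.29% of all genes were called higher and 3.77% lower.

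Lymphocyte markers other than those of NK cells passed in no case without the block. None of 9 tested T cell markers was called, and those with the smallest p were Trat1, Cd3d and Cd28 (limma adjusted p = 0.0566, 0.223 and 0.392). None of 5 B cell markers was called, and those with the smallest p were Cd22, Cd79b and Cd79a (limma adjusted p = 0.581, 0.6 and 0.759). With the block 3 T cell and 1 B cell marker rose, where 3.29% of all genes were called higher.

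Megakaryocytes and platelets, which carry beta3, and mast cells, which carry beta7 and Kit, were looked for by their markers. Of 6 tested megakaryocyte and platelet markers other than Itgb3, none was above background on all arrays of either group, none was called, and Gp1bb, Ppbp and Itga2b had the smallest p (limma adjusted p = 0.219, 0.822 and 0.894). Of 7 tested mast cell and basophil markers, none was above background on all arrays of either group and none was called, with Gata2, Mrgprb2 and Prss34 at the smallest p (limma adjusted p = 0.258, 0.741 and 0.884). Cpa3 and Fcer1a, which define mast cells and basophils, were not above background on any array. Endothelial markers, of interest because endothelium carries VCAM-1, gave no call among 8 tested without the block. With the block 1 of the 8 rose, Pecam1 (limma adjusted p = 0.0222), where 3.29% of all genes were called higher. The second tested Pecam1 probe had the opposite sign. Without the block the smallest p belonged to Pecam1, Cxcl12 and Esam (limma adjusted p = 0.101, 0.886 and 0.891), and the probes of Cdh5, Kdr, Tek and Tie1 were too dim to be tested.

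Of 12 tested NK markers, 2 fell and none rose, where 0.707% of all 11743 genes were called lower. They were the pore-forming protein Prf1 and the transcription factor Eomes, with Tbx21 next by p (limma adjusted p = 0.00345, 0.0319 and 0.0665). With the block 4 of the 12 fell and none rose, where 3.77% of all genes were called lower. In every Kit+ sample 10 of the 12 exceeded the background level, beside 5294 of all 11743 genes. In every Kit- sample 11 of the 12 did, beside 4366 of the 11743. The summed intensity of the 12 lay between 38442 and 46012 on the Kit+ arrays and between 53714 and 56614 on the Kit- arrays.

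**Figure D4:**
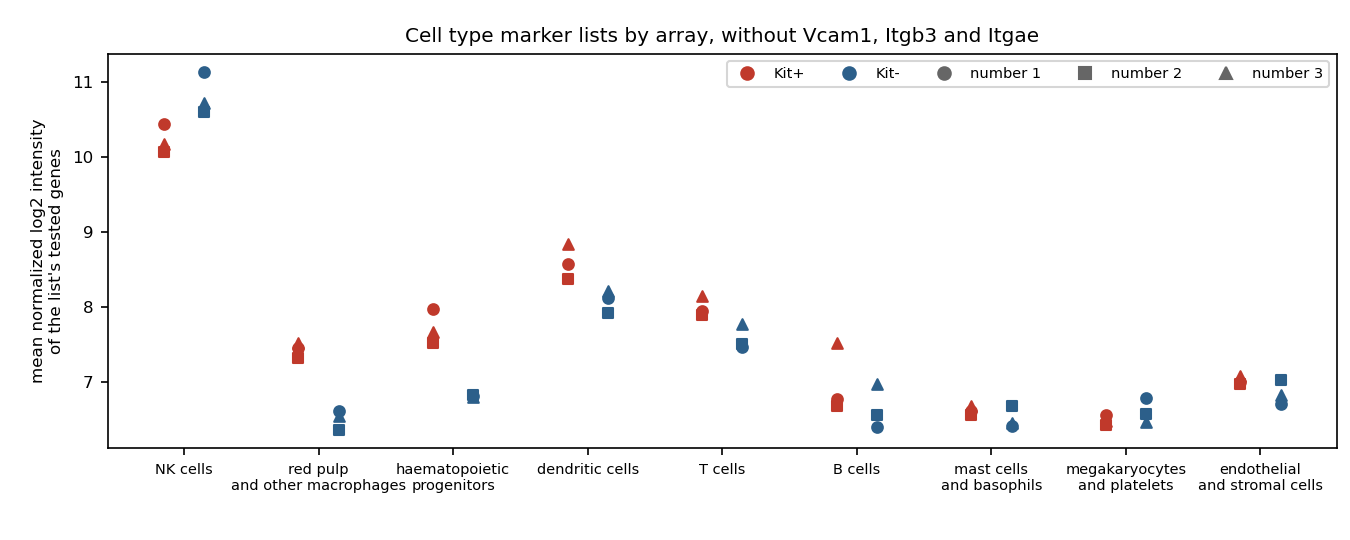
Mean normalized log2 intensity of the tested genes of 9 cell type marker lists (y axis) on each of the 3 Kit+ (red) and 3 Kit- (blue) arrays, without Vcam1, Itgb3 and Itgae, and with marker shapes for the title numbers. The progenitor list includes Kit. The macrophage list lies between 7.31 and 7.52 in Kit+ and between 6.35 and 6.61 in Kit-, and the NK list between 10.07 and 10.43 in Kit+ and between 10.60 and 11.13 in Kit-.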

How the data were processed

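Per the file headers, each deposited array table holds raw probe intensity (no detection p-value is used), and the submitters' processing notes name BeadStudio 3.1.1.0. The series value table, also deposited, holds linear intensity: it equals the authors' raw signal after quantile normalization without background correction, to within a relative difference of 0.000223. It is uncentred, with a median of 92.8 in all 6 columns. For this report the raw signal was corrected by normexp (offset 50), converted to log2 and then quantile normalized. The 22994 probes with a mean above the median of all probes were kept. Each was compared between groups in limma 3.58.1 (lmFit, eBayes; R 4.3.3), adjusting by Benjamini-Hochberg over the kept probes, with 0.05 as the threshold. A gene's brightest kept probe stood for it. Code was tested on simulated data.

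Gene symbols are those of the platform annotation held by GEO, which may be outdated: 29457 probes had 1 symbol, 11 several and 16520 none. RefSeq genes of GRCm38.p6 held 29399 of the 29457, and no symbol needed an update. As no build is named in the files, coordinates are left out.

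Samples with the same title number deviated together from their group means (correlations 0.635, 0.527 and 0.272). For samples of unlike numbers the correlations ran from -0.573 to 0.084. The labels describe repeated sorts. The samples were therefore treated as pairs by number in the fits with the block only. The unblocked fit was planned as the main one, and its p-values leave the pairing out. These p-values cover only the spread among these samples, whose number limits the precision. An exact permutation test of 3 against 3 samples cannot go below 0.1.

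The genes and lists were chosen with earlier results of these data known, and the background level was chosen after looking at the values. Named genes are every probe of the 9 symbols, the sort checks, the called genes or 3 smallest p-values of each list, 4 beta2 chains and the 4 most alike genes. Genes called only with the block, Tln1, Fn1, Madcam1, Cdh1, Cpa3, Fcer1a, C1qa, Vsig4, Treml4 and the markers given as too dim or not listed were named after their values were seen. Other inputs, normalizations, filters, probe summaries and left-out samples were tried.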

Additional observations from a re-analysis of the deposited data

How the results depend on the processing

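The rise of Vcam1 probe 2900450 kept its sign in all 21 alternatives and passed in 17 of them. It passed in all 6 fits without 1 sample (log2 difference 2.06 to 2.30, limma adjusted p 0.0139 to 0.0408). It did not pass on raw signals without normalization (2.03), on raw signals centred on the median, with or without the replicate block (2.20 in both), or with the mean of its tested probes (0.66), and the cause was not tested. Itgav probe 100110411 passed with the replicate block (1.21) and in the value table with it (1.28), but in none of the 6 unblocked fits without 1 sample (limma adjusted p 0.103 to 0.369). With the block it passed without number 1 (0.95) and without number 3 (1.29), but not without number 2 (1.39, limma adjusted p = 0.0618).

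Of all tested probes 77 were called higher and 186 lower. The counts were 518 and 824 with the replicate block, 422 and 708 in the value table with it, and 0 and 0 in the 3 fits to raw signals. With 1 brightest probe or 1 mean per gene 85 and 96 were called lower. Leaving out 1 sample gave 12 to 40 higher and 36 to 136 lower. With the block, leaving out number 1, 2 or 3 gave 663, 91 and 684 higher and 853, 186 and 791 lower. Of the genes described here 1 was called higher, against 2 with the replicate block and in the value table with it, and 0 on raw signals or with the mean per gene. Without 1 sample it was 1 throughout, and without number 1 or 3, with the block, it was 2. None was called lower in any of the 21.

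Differences near 0 changed sign. Without normalization those of Itga2, Itgav 2340020, Vcam1 101770070 and Vcam1 105130056 were -0.13, -0.057, -0.19 and -0.17. With median centring, blocked or not, those of Itga4 101940707 and Vcam1 101770070 were 0.0083 and -0.024, and with a normexp offset of 16 that of Itgae 4210632 was 0.0011. Leaving out 1 sample gave -0.20 to 0.17 for Itga2, -0.18 to 0.15 for Itga4 101940707, -0.25 to 0.18 for Itgae 4210632, -0.13 to 0.0092 for Itgav 106660463, -0.12 to 0.089 for Itgav 106840138, -0.55 to 0.097 for Itgb1 770369 and -0.51 to 0.018 for Itgb1 5080156. For Vcam1 101770070 it gave -0.086 to 0.17, and for Vcam1 105130056 -0.067 to 0.14. With the replicate block the sign turned without number 1 for Itga2 (-0.014). Without number 2 it turned for Itga2 (-0.097), Itga4 101940707 (0.059), Itgae 4210632 (0.063), Itgav 2340020 (-0.0082), Itgav 106660463 (0.055) and Vcam1 101770070 (-0.032). Without number 3 it turned for Itga4 101940707 (0.10), Itgae 4210632 (0.069), Itgav 106840138 (0.047), Itgb1 770369 (0.13) and Vcam1 105130056 (-0.089). Low signal over background limits what can be said of Itga2, Itga4, Itgb3 and the dim probes.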
